A study of Mus musculus with 7 samples.

Results

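The 9 genes described here were grouped as growth genes that are in general more active before birth than in adult tissue: Hmga2, H19, Igf2, Mest, Peg3, Dlk1, Igf2bp2, Igf2bp3 and Crabp1. They were found by their symbols among the 33696 genes of the feature list. Some of them were chosen by their UMI counts in the same libraries, as genes that led clusters of tumor cells. Differences between tumor and host cells, and among tumor cells, are therefore given as descriptions without a test. The contrast of irradiated with control tumors was not used in the choice and was tested.

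Single cells came from 7 subcutaneous tumors in C57/B6 wild-type females that were 5–6 weeks old at implantation. All tumors were made with JW23.3, a single mouse MPNST line (malignant peripheral nerve sheath tumor) with mutant Nf1 and Trp53, so the tumors differ by host and not by tumor of origin. There were 4 irradiated tumors, each given 2 Gy daily in 5 fractions, and 3 control tumors without irradiation. Each tumor was dissociated with papain on day 21 and gave 1 droplet library of the 3′ ends of transcripts, so the tumor was the replicate.

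Imprinted genes are read from only 1 parental copy, and many of them set the growth of the fetus. H19, a long noncoding RNA read from the maternal copy, and Igf2, an insulin-like growth factor read from the paternal copy, are neighbors that share enhancers. Mest, Peg3 and Dlk1 are read from the paternal copy. Hmga2, a chromatin protein that bends DNA, and Igf2bp2 and Igf2bp3, which bind Igf2 and other mRNAs, are called oncofetal because they are abundant in the embryo, fall with development and return in tumors. The microRNA let-7 rises as tissues mature and represses Hmga2 and the Igf2bp genes, and Lin28 proteins block its maturation. Crabp1, which binds retinoic acid in the cytoplasm, is a gene of the developing neural crest, the embryonic source of Schwann cells, to which MPNST is related.

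All 9 genes were found in the GENCODE M21 annotation of mouse build GRCm38 by gene identifier. H19 (ENSMUSG00000000031, a noncoding RNA) lay at chr7:142575529-142578143 on the minus strand, and Igf2 (ENSMUSG00000048583) lay at chr7:142650766-142666816 on the same strand. Peg3 (ENSMUSG00000002265) was elsewhere on that chromosome, at chr7:6703892-6730431. Mest (ENSMUSG00000051855) lay at chr6:30723547-30748465 on the plus strand and Dlk1 (ENSMUSG00000040856) at chr12:109452823-109463336 on the plus strand. Hmga2 (ENSMUSG00000056758) lay at chr10:120361275-120476469, Igf2bp2 (ENSMUSG00000033581) at chr16:22059009-22163299 and Igf2bp3 (ENSMUSG00000029814) at chr6:49085223-49214957, all on the minus strand. Crabp1 (ENSMUSG00000032291) lay at chr9:54764748-54773110 on the plus strand.

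H19 and Mest each carry a microRNA, shown because both host genes varied most together among the tumor cells. The hairpin of miR-675 lay in an exon of 3 of the 4 H19 transcripts that span it, whereas the hairpin of miR-335 lay in an intron of all 7 spanning Mest transcripts. The droplet assay does not read mature microRNAs, so the values below are those of the host transcripts. The mature sequences are from RefSeq on GRCm38.p6, 5′ to 3′, with the seed (bases 2 to 8) in capitals.
mmu-miR-675-5p (H19): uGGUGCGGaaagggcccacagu
mmu-miR-675-3p (H19): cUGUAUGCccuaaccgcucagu
mmu-miR-335-5p (Mest): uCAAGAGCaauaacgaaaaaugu
mmu-miR-335-3p (Mest): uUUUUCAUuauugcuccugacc
The 4 seeds differ, so these microRNAs form no seed family.

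The oncofetal members Hmga2, Igf2bp2 and Igf2bp3 each held a match to let-7. They are known as genes that let-7 represses, so the matches were foreseen. The shares of other genes given beside them are background and not a test. The longest 3′ untranslated region of Hmga2 (3014 bases) held the let-7 seed match CTACCTC 4 times, that of Igf2bp2 (1784 bases) once and that of Igf2bp3 (2119 bases) once. Of the 21039 genes with such a region, 9.02% held the match, and 12 held it at least 4 times. Among regions of like length the shares were 16.1% for Hmga2, 12.1% for Igf2bp2 and 13.3% for Igf2bp3. Peg3 held 1 match in 3614 bases, and the motif was not found in the regions of Igf2, Mest, Dlk1 and Crabp1. Only the transcript strand was searched, and a match is a stretch of letters, not a shown site of binding. The mature let-7a sequence is given with its seed in capitals, and the first match in each of the 3 transcripts with the motif in capitals.
mmu-let-7a-5p: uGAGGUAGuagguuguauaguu
Hmga2 (bases 58 to 64 of the region): gccgacattcaatttCTACCTCag
Igf2bp2 (bases 1313 to 1319): acacacaaataaaagCTACCTCag
Igf2bp3 (bases 548 to 554): tgcatttttactcaaCTACCTCag

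In all, 646559899 UMIs (unique molecular identifiers, each a single captured transcript) were counted in 39537 cells, of which 34296 passed the filter. Cells were assigned by marker gates, and the tumor gate held 16617 cells, from 876 in irradiated 4 to 3442 in irradiated 1. The macrophage gate held 11944 cells, the T/NK gate 1445, the endothelial gate 511, the fibroblast gate 333 and the pericyte gate 192 (9 of them in irradiated 4). Of the tumor markers, Col11a1 (median over tumors 1514 CPM, counts per 1000000 UMIs of a gate), Postn (1194 CPM) and Cdh11 (1019 CPM) were abundant in the tumor gate, and Xist, which marks cells of the female hosts, was at 2.25 CPM there against 1004 CPM in macrophages. The Schwann and neural crest genes Sox10 (0.0508 CPM) and Ngfr (0.0528 CPM) were near 0, so the tumor cells are named by the gate and not as Schwann cells. The fibroblast genes Dcn (577 CPM) and Lum (612 CPM) were present in the tumor gate. Irradiated 1, control 2 and control 3 had more cells than the other 4 libraries, and 190 barcodes occurred in more than 1 library. Differences between the groups with and without those barcodes are given below.

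Hmga2 was high in the tumor gate and close to absent from macrophages. Its level in tumor-gated cells was 508.5, 388.7, 620.0 and 1125 CPM in irradiated tumors 1 to 4 and 459.9, 396.5 and 473.2 CPM in control tumors 1 to 3. Irradiated 4 stood above the other 6 tumors, and the groups overlapped. In macrophages Hmga2 was at 1.88–5.29 CPM, a median of 0.566% of the tumor level of the same mouse. In the endothelial gate it was at 0–151 CPM and in the fibroblast gate at 0–32.5 CPM.

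Igf2bp2, which binds mRNAs of growth and metabolism genes, was at 82.3, 111, 102 and 142 CPM in irradiated tumors 1 to 4 and at 91.6, 73.9 and 73.7 CPM in control tumors 1 to 3. Irradiated 4 was again highest, and irradiated 1 lay below control 1. Its macrophage level was 2.36–5.14 CPM. The few keratinocyte-gated cells (present in 5 tumors) carried it at a median of 33.8 CPM.

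Igf2bp3, a related protein of the embryo, was at 16.1, 17.5, 20.2 and 23.6 CPM in irradiated tumors 1 to 4 and at 9.97, 12.2 and 16.8 CPM in control tumors 1 to 3. The groups overlapped through irradiated 1, which lay below control 3. Of the 6 members that were abundant in the tumor gate, Igf2bp3 kept the highest fraction of its tumor level in fibroblasts (50.9–84.5%), in T/NK cells (median 48.6%, 11.0–83.4%) and in macrophages (median 12.1%). These values rest on 45, 44 and 169 UMIs over all tumors. Part of the Igf2bp3 exons (18.7%) overlaps Malsu1 on the opposite strand, and counting by strand is not stated. The part of Malsu1 reads in the Igf2bp3 values was not tested.

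H19 was high in the tumor gate of every mouse and also present in fibroblasts. Its tumor level was 660.6, 1072, 390.9 and 308.1 CPM in irradiated tumors 1 to 4 and 694.8, 638.3 and 531.5 CPM in control tumors 1 to 3. The irradiated tumors held both the highest and the lowest value, and the control tumors lay inside their range. In the fibroblast gate H19 was at 19.5–469 CPM, which was 4.99–73.4% of the tumor level. In the same fibroblasts Hmga2 was at a median of 1.44% and Crabp1 at 5.75% of their tumor levels, against 39.0% for H19. Fibroblast-gated cells had to carry Xist and as many tumor marker UMIs as tumor-gated cells, which a droplet with a tumor and a host cell can also meet, and the part of such droplets in this value was not tested.

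Igf2, the neighbor of H19, gave no UMI among 461966966 UMIs of the tumor gate, where 3 UMIs would be 0.00649 CPM. A single Igf2 UMI was counted in the whole series, in an endothelial-gated cell of irradiated 4. This zero cannot be read as absence of the transcript, because in GENCODE M21 the gene Gm49394 lies on the same strand and shares 62.8% of the exon bases of Igf2, and reads that match both genes may have been left out of the counts. Gm49394 also had 0 UMIs. The annotation used for counting is not given in the sources used here, and 1735 of the 33696 gene identifiers were not in GENCODE M21.

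Mest, a paternally expressed gene of the mesoderm, was at 723.0, 426.9, 607.3 and 250.1 CPM in the tumor gate of irradiated tumors 1 to 4 and at 666.8, 708.2 and 564.4 CPM in control tumors 1 to 3. Irradiated 4 was lowest, as it was for H19, and the groups overlapped. Among host cells Mest was most abundant in endothelium, at 56.4–279 CPM, or 13.2–56.9% of the tumor level. The tumor markers that are abundant in the tumor gate reached a median of 1.28–18.9% of their tumor level in the same endothelial cells, and Mest lay above that median in 7 of 7 tumors. The highest single marker of each tumor reached 15.5–43.9%, a range that overlaps that of Mest. Mest was at 0–261 CPM in fibroblasts. Part of its exons (23.1%) overlaps Copg2 on the opposite strand.

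Peg3 and Dlk1 were host transcripts in these tumors and close to absent from the tumor gate. Peg3, a zinc finger protein, had 31 UMIs in the tumor gate (6, 0, 0 and 0 in irradiated tumors 1 to 4 and 6, 9 and 10 in control tumors 1 to 3), a pooled level of 0.0671 CPM. Its level was 4.49–41.4 CPM in the endothelial gate, 6.51–26.8 CPM in the fibroblast gate and 7.13–44.0 CPM in the pericyte gate, so each of these gates exceeded the tumor gate in every mouse. Macrophages and T/NK cells held no Peg3 UMI.

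Dlk1, a membrane protein related to the Notch ligands, was at 1.11, 0.625, 0.0528 and 0 CPM in the tumor gate of irradiated tumors 1 to 4 and at 0.424, 0.613 and 0.596 CPM in control tumors 1 to 3. The highest and the lowest values were both from irradiated tumors. In pericytes, the mural cells of small vessels, Dlk1 was at 22.5–136 CPM with a median of 87.5 CPM. It had 0 UMIs in the endothelial and macrophage gates and 3 UMIs in the fibroblast gate.

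Crabp1 was at 1970, 1432, 2017 and 1925 CPM in the tumor gate of irradiated tumors 1 to 4 and at 1612, 1350 and 1796 CPM in control tumors 1 to 3. Irradiated 2 lay below the other 3 irradiated tumors and inside the range of the controls. The macrophage level was 18.4–54.0 CPM, the endothelial level 6.51–487 CPM and the fibroblast level 22.3–192 CPM. Hmga2, H19, Mest, Igf2bp2, Igf2bp3 and Crabp1 were each higher in the tumor gate than in the macrophage, T/NK, endothelial and fibroblast gates in all 7 tumors. This did not hold for Igf2bp3 with the stricter gate or with the mean over single cells, where 5 of these 6 genes met it.

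Free RNA from broken tumor cells can reach droplets of other cells. The abundant tumor markers stood in macrophages at a median of 0.939% of their tumor level (0.454–2.48% over tumors). Hmga2 lay below that median in all 7 tumors, and H19, Mest, Crabp1, Igf2bp2 and Igf2bp3 lay above it in all 7. The highest single marker of each tumor stood at 4.69–8.75% of its tumor level. H19, Mest, Crabp1 and Igf2bp2 reached at most 2.6%, 3.1%, 3.4% and 4.6%, so they stayed below that marker. Igf2bp3 ran from 4.66% to 17.1%. The part of free RNA in the macrophage values was not tested.

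**Figure D1:**
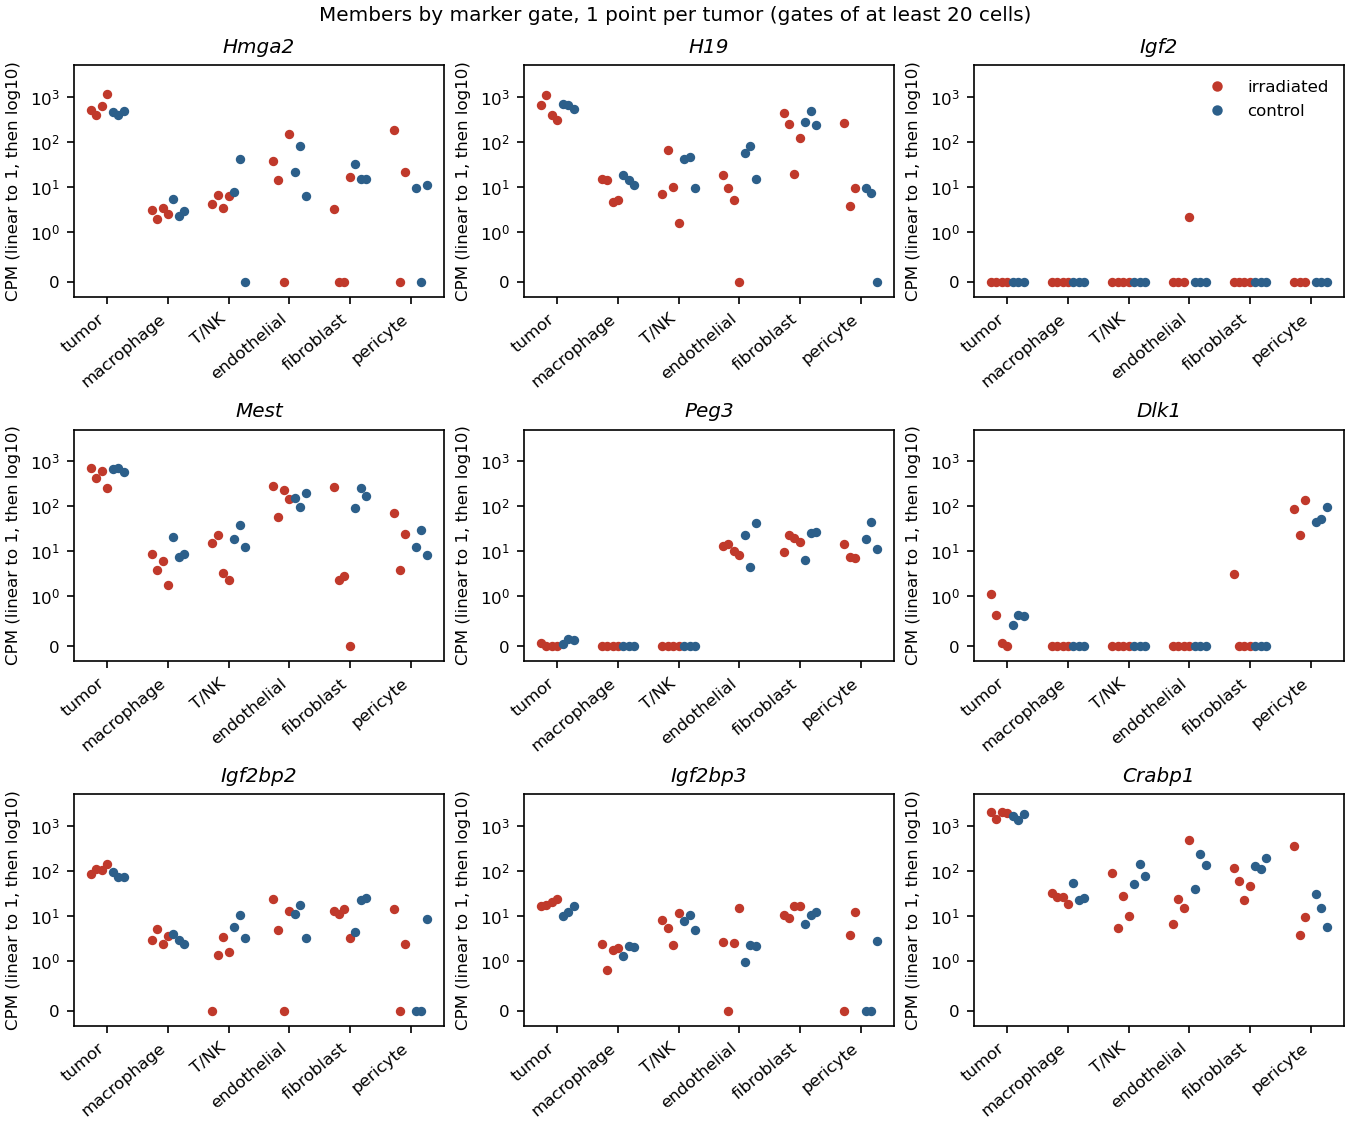
Level of each of the 9 genes (y axis, CPM, linear up to 1 and log10 above) in 6 gates of marker-defined cells (x axis), with 1 point per tumor with at least 20 cells in the gate, for 4 irradiated and 3 control tumors. Hmga2, H19, Mest, Igf2bp2, Igf2bp3 and Crabp1 are highest in the tumor gate, Dlk1 in pericytes, and Peg3 in endothelium, fibroblasts and pericytes, while Igf2 stays at 0 apart from 1 UMI.

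Whether the fractionated irradiation had moved these genes in the tumor cells on day 21 was asked by summing the UMIs of the tumor gate per tumor and comparing the groups with edgeR's quasi-likelihood test. The 7 members with enough counts, all but Igf2 and Peg3, gave 0 calls at an adjusted p under 0.05. The share called among the 17738 genes tested was also 0%, with 252 genes at an unadjusted p under 0.05 (of the members, Igf2bp2 alone), and DESeq2 called 1 gene (C1qc, a macrophage gene). With 1 tumor left out, the number at an unadjusted edgeR p under 0.05 ran from 183 to 957, with 0 calls each time. That number thus depended on single tumors, and 0 calls do not show that no gene changed. The groups did not overlap for 0 of the 7 members, against 2.43% of all genes tested. The tumors share 1 cell line, so the p values measure the spread between tumors of that line, and sums over a gate do not tell fewer positive cells from less RNA per cell.

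The largest increases in point estimate were those of the RNA-binding and chromatin members, and none was called after adjustment over all genes tested. Igf2bp3 had a mean of 19.4 ± 3.29 CPM (SD, n = 4) in irradiated and 13.0 ± 3.48 CPM (SD, n = 3) in control tumors, a log2 fold change of 0.48 (SE 0.22, edgeR adjusted p = 0.9995). Igf2bp2 had 109.4 ± 24.95 CPM (SD, n = 4) against 79.7 ± 10.3 CPM (SD, n = 3), a log2 fold change of 0.39 (SE 0.15, edgeR adjusted p = 0.9995). Hmga2 had 660 ± 324 CPM (SD, n = 4) against 443 ± 41.0 CPM (SD, n = 3), a log2 fold change of 0.48 (SE 0.30, edgeR adjusted p = 0.9995). Much of the Hmga2 difference came from 1 library: without irradiated 4 its log2 fold change was 0.14, that of Igf2bp2 was 0.27, and that of Igf2bp3 was 0.41. Without control 3 the log2 fold change of Igf2bp3 was 0.79 (edgeR adjusted p = 0.9997).

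The imprinted members and Crabp1 differed less than their errors or little more. Mest had 502 ± 207 CPM (SD, n = 4) in irradiated and 647 ± 74.0 CPM (SD, n = 3) in control tumors, a log2 fold change of -0.41 (SE 0.33, edgeR adjusted p = 0.9995), and -0.18 without irradiated 4. H19 had 608 ± 344 CPM (SD, n = 4) against 622 ± 83.0 CPM (SD, n = 3), a log2 fold change of -0.07 (SE 0.41, edgeR adjusted p = 0.9995), and its sign turned to 0.16 without irradiated 4. Crabp1 had 1836 ± 272 CPM (SD, n = 4) against 1586 ± 224 CPM (SD, n = 3), a log2 fold change of 0.14 (SE 0.18, edgeR adjusted p = 0.9995). Dlk1, with 255 UMIs in all tumor-gated cells, had a log2 fold change of -0.22 with an SE of 0.97.

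The main fit had no call that could be lost. None was made without the shared barcodes or with a term for 2 sets of libraries. These sets were split by cell number, depth, genes per cell and mitochondrial share. Without shared barcodes the log2 fold changes were 0.48 for Hmga2, 0.39 for Igf2bp2 and -0.07 for H19. With these sets as a term, they were 0.41 for Hmga2, 0.25 for Igf2bp2 and 0.59 for Igf2bp3. Within the set of irradiated 1, control 2 and control 3, Igf2bp2 was higher in the irradiated tumor than in both controls. Within the other set it was higher in irradiated tumors 2 to 4 than in control 1. Igf2bp3 lay above control 1 in irradiated tumors 2 to 4, and irradiated 1 lay between control 2 and control 3. The sets were not balanced between the groups. Irradiated 1 was the only irradiated tumor of its set and control 1 the only control of the other, so these orders rest on single tumors.

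**Figure D2:**
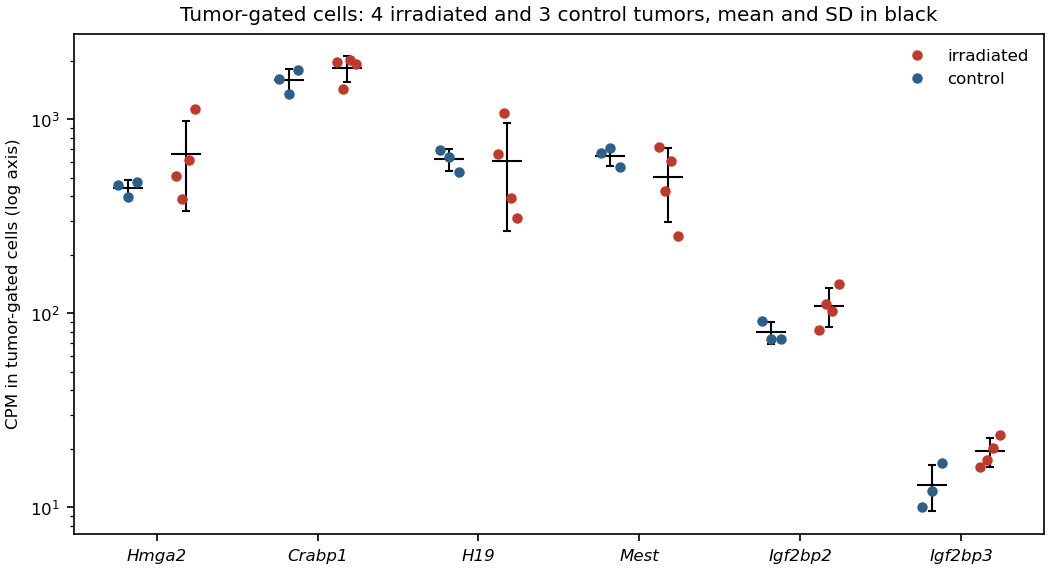
Level in tumor-gated cells (y axis, CPM, log axis) in irradiated (n = 4) and control (n = 3) tumors, with 1 point per tumor and the mean with its SD in black, for Hmga2, H19, Mest, Igf2bp2, Igf2bp3 and Crabp1. The groups overlap for every gene, and irradiated 4 lies highest for Hmga2 (1125 CPM) and lowest for H19 (308.1 CPM) and Mest (250.1 CPM).

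In macrophages 6 members had enough counts for the test, and 0 of them were called, as were 0% of the 12701 genes tested by edgeR (668 at an unadjusted p under 0.05, 3 called by DESeq2). The groups did not overlap for 0 of these 6 members, against 4.97% of all genes tested. Mest had the lowest p, with a log2 fold change of -1.31 (SE 0.52, edgeR adjusted p = 0.833). Its macrophage level was 1.78–8.74 CPM in irradiated tumors, and 7.56, 8.51 and 20.4 CPM in control tumors. Control 1, which had the highest Mest value, also had the highest share of the tumor markers in macrophages, 2.48%, and its part in the difference was not tested.

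To compare tumor cells among themselves, each cell was thinned at random to 5000 UMIs, which left 15179 tumor-gated cells (592 cells of irradiated and 846 of control tumors were shallower). Crabp1 was found in 79.0% of them (73.7–83.0% over tumors), Hmga2 in 54.2% (46.1–80.4%), H19 in 49.1% (26.8–58.5%) and Mest in 46.6% (22.7–56.0%). Igf2bp2 was found in 33.4% and Igf2bp3 in 7.09%. In macrophages thinned to the same depth the shares were 11.3% for Crabp1, 1.54% for Hmga2, 4.85% for H19, 3.71% for Mest, 1.37% for Igf2bp2 and 0.883% for Igf2bp3. For these 6 genes the pooled tumor share lay above the macrophage share. Whether macrophages express any of them at a low level was not tested. Dlk1 was found in 0.138% and Peg3 in 0.0659% of tumor-gated cells, and Igf2 in 0 of 15179 cells, which allows a share of up to 0.0198%. Without thinning, the median shares over tumors were 90.3% for Crabp1, 75.8% for Hmga2 and 64.4% for H19.

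Irradiated 4 again stood at the ends of these ranges. Hmga2 was found in 80.4% of its thinned tumor-gated cells (95% Wilson interval 77.6–83.0%, 818 cells), H19 in 26.8% (23.9–29.9%) and Mest in 22.7% (20–25.7%). Of the other 3 irradiated tumors, irradiated 2 and 3 also lay above the control tumors for Hmga2 (57.3% and 61.3% against 46.1–56.7%) and below them for Mest (37.7% and 37.8% against 41.2–56.0%), while irradiated 1 lay inside the control range for both. For Hmga2, however, the share of irradiated 2 was close to that of control 3 (56.7%). Its Hmga2 level in the tumor gate, 388.7 CPM, was the lowest of all 7 tumors. The shares of irradiated and control tumors overlapped for all 9 genes. Irradiated 4 also had the smallest share of tumor-gated cells, 28.7% of its retained cells against 42.4–62.4% elsewhere, and its part in these values was not tested.

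H19, Mest, Hmga2 and Crabp1 were unevenly spread among the cells of each tumor. The variance of the thinned counts was 9.10–18.6 times the mean for H19, 9.99–16.4 times for Mest, 9.65–15.2 times for Crabp1 and 5.31–9.28 times for Hmga2, against a median of 1.11–1.14 times over the 8588–9041 genes compared. The tenth of cells with the most UMIs of a gene held a median of 60.3% of the UMIs of Mest, 54.2% of those of H19, 51.3% of those of Hmga2 and 42.4% of those of Crabp1. For Igf2bp2, which had fewer UMIs per cell, the variance was 1.27–1.64 times the mean and the share of UMIs held in the same way was a median of 50.3%. Both measures depend on the level of a gene, so they do not order the members by how unevenly they were spread.

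Of these 4 genes, the imprinted pair H19 and Mest ran opposite to Hmga2 and Crabp1. Within each tumor, the correlation of log counts across cells between H19 and Mest had a mean Pearson r of 0.61 (0.53–0.71 over 7 tumors, 15179 cells in all). Hmga2 and Crabp1 correlated at 0.30 (0.22–0.46). Hmga2 correlated with Mest at -0.42 (-0.46 to -0.37) and with H19 at -0.40 (-0.46 to -0.34). Crabp1 correlated with Mest at -0.40 (-0.49 to -0.32) and with H19 at -0.39 (-0.48 to -0.27). Each of these 6 pairs kept its sign in all 7 tumors. Cells of a tumor share a library, so these values describe the libraries and carry no p.

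The same signs were seen in narrower sets of cells, which were chosen after the correlations had been seen. In the 9695 cells with no UMI of the cycling genes, the mean r was 0.56 for H19 with Mest, 0.27 for Hmga2 with Crabp1, -0.38 for Hmga2 with Mest and -0.34 for Hmga2 with H19. In the 10348 cells with 10000 to 40000 UMIs before thinning, the 4 values were 0.59, 0.28, -0.41 and -0.39. Without shared barcodes they were 0.61, 0.30, -0.42 and -0.40.

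Igf2bp2 correlated with Hmga2 at 0.10 (0.07–0.12), a weak value that was positive in all 7 tumors. In cells with an Igf2bp2 UMI, Hmga2 was higher than in the rest in 7 of 7 tumors (median log2 difference 0.41, 0.26–0.47), and Mest was lower in 7 of 7 (-0.29). Igf2bp2 correlated with each of H19, Mest and Crabp1 between -0.04 and -0.02. The mean r of Igf2bp3 with every other of these members lay between -0.02 and 0.03. At this depth the values for Igf2bp3 are too weak to be read as a relation.

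**Figure D3:**
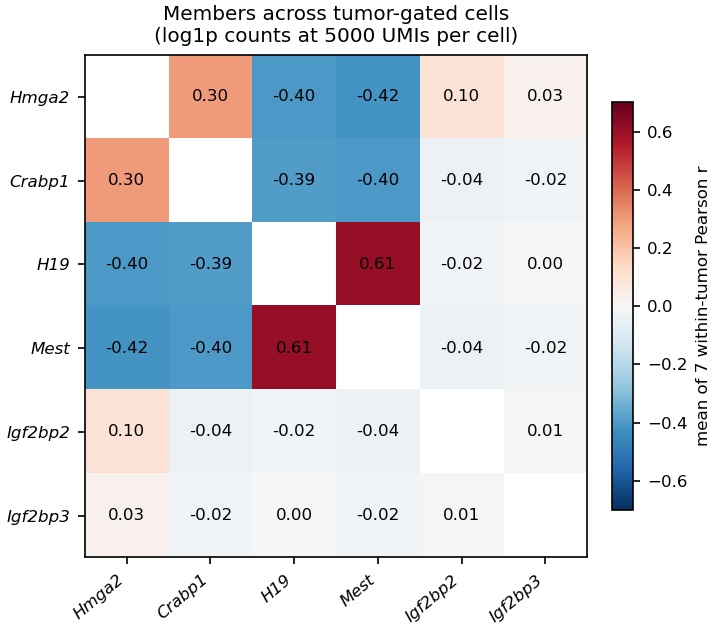
Mean Pearson r over 7 tumors of log thinned counts across tumor-gated cells (color and printed value) for each pair of Hmga2, H19, Mest, Igf2bp2, Igf2bp3 and Crabp1. H19 and Mest stand together at 0.61, Hmga2 and Crabp1 at 0.30, and the 4 pairs between these groups lie from -0.42 to -0.39.

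Grouping the cells by detection shows the same split in levels. Cells with both H19 and Mest made up a median of 33.5% of the thinned tumor-gated cells (15.3–47.1% over tumors), cells with H19 only 11.4%, cells with Mest only 8.04% and cells with neither 39.1% (32.6–65.8%). In cells with both, Hmga2 was at a median of 113 CPM (90.7–326 CPM), and in cells with neither at 765 CPM (636–1384 CPM). These ranges over tumors did not overlap. Crabp1 was at 533 CPM (447–629 CPM) in cells with both and at 2055 CPM (1617–3003 CPM) in cells with neither. A UMI of the cycling genes was found in 16.9% of cells with both and in 54.8% of cells with neither.

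**Figure D4:**
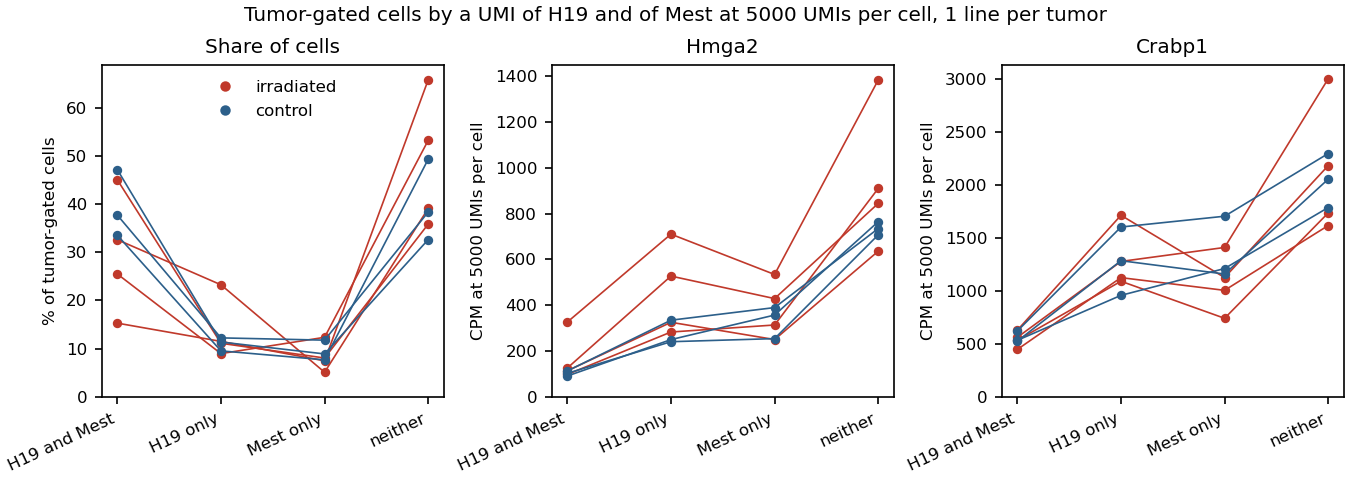
Tumor-gated cells split by detection of H19 and Mest at 5000 UMIs per cell (x axis), with the share of cells (percent), the level of Hmga2 and the level of Crabp1 (CPM) on the y axes, and 1 line per tumor for 4 irradiated and 3 control tumors. Both Hmga2 and Crabp1 are highest where neither imprinted transcript was found, with medians of 765 and 2055 CPM.

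The levels also went with the cycling program, a list of mitotic genes such as Mki67 and Top2a. In each tumor, cells above that tumor's median for the list were compared with the rest. Most cells of each tumor had no UMI of the list (9695 of 15179 in all). The cells above the median were therefore those with any such UMI. In the cells without one, the correlations given above kept their signs. Hmga2 was higher in the cells above the median in 7 of 7 tumors, with a median log2 difference of 1.08 (657 against 292 CPM). Crabp1 was higher there in 7 of 7, with 0.83 (1873 against 1070 CPM). H19 was lower in 7 of 7 tumors, with a median of -1.41 (386 against 1004 CPM), and Mest in 7 of 7, with -1.79 (274 against 979 CPM). Igf2bp2 differed by -0.24, and was lower in 7 of 7. Igf2bp3 was higher in 3 of 7.

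Other programs also moved with these genes. Cells above the median for the Schwann and neural crest list had more Mest (median log2 difference 0.78, 7 of 7 tumors) and H19 (0.56, 7 of 7) and less Hmga2 (-0.57, 7 of 7). That list was carried by its other genes, since Sox10 and Ngfr were near 0. Cells above the median for immediate early genes, such as Fos and Egr1, which respond to growth signals and to dissociation, had more Mest (0.74, 7 of 7) and H19 (0.56, 7 of 7) and less Hmga2 (-0.81, 7 of 7) and Crabp1 (-0.43, 7 of 7). Crabp1 was lower in cells above the median for cartilage genes (-0.94, 7 of 7), where H19 was higher in 6 of 7 (0.70). For hypoxia genes H19 and Mest parted, with 0.30 for H19 (higher in 7 of 7) and -0.29 for Mest (higher in 1 of 7), and Igf2bp2 differed by 0.24 (higher in 6 of 7).

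**Figure D5:**
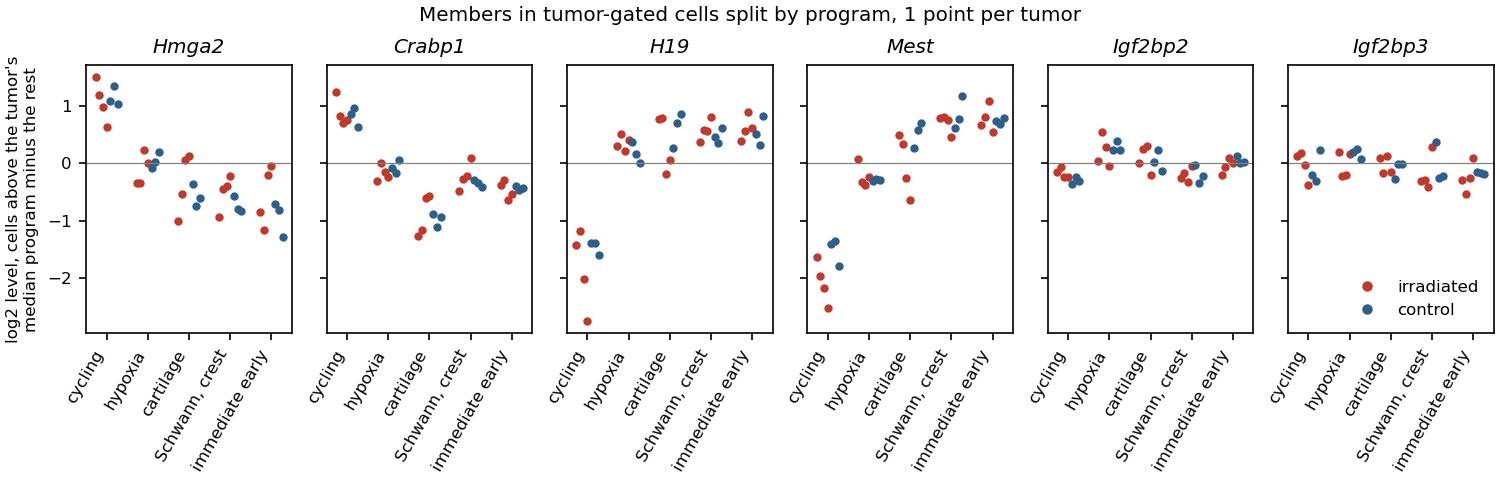
Difference in level between cells above and not above their tumor's median for 5 gene programs (x axis; the y axis is the log2 difference), with 1 point per tumor for each of Hmga2, H19, Mest, Igf2bp2, Igf2bp3 and Crabp1. For the cycling program Hmga2 and Crabp1 lie above 0 and H19 and Mest below 0 in 7 of 7 tumors.

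Depth and RNA composition moved with the same genes. From cells with 10000 to 20000 UMIs to cells with at least 40000 UMIs, the median level fell from 927 to 248 CPM for H19 and from 643 to 309 CPM for Mest, in 7 of 7 tumors each. Over the same step it rose from 356 to 598 CPM for Hmga2 and from 863 to 2091 CPM for Crabp1, in 7 of 7 tumors each. The rise did not start in the shallowest cells. Crabp1 was at a median of 1456 CPM under 5000 UMIs and 1066 CPM at 5000 to 10000 UMIs. Hmga2 was at 316 and 446 CPM there, H19 at 1320 and 1058 CPM, and Mest at 943 and 860 CPM. Crabp1 correlated across cells with the share of ribosomal protein genes (mean r 0.52), with Malat1, a nuclear RNA (-0.44), and with UMIs per cell (0.34). H19 and Mest correlated with the ribosomal share at -0.29 and -0.32, and Hmga2 at 0.06. The part of RNA composition in the correlations between members was not tested, and the values within 10000 to 40000 UMIs are those given above.

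Among 8893 genes found in at least 5% of thinned tumor-gated cells, those whose pattern across cells was most like a member were named for each. For Mest they were Eln, which encodes elastin (mean r 0.68), Igfbp4, an IGF-binding protein (0.63), and H19 (0.61). For H19 they were Mest (0.61), Igfbp4 (0.58) and Col11a1, a collagen and 1 of the gate markers (0.58). For Hmga2 they were Tafa1 (0.41), Rbpj, the DNA-binding partner of Notch (0.37), and Ccnd1, cyclin D1 (0.36). The gene most opposite to Hmga2 was the gate marker Col11a1 (-0.50). The part of the gate in the shares and levels of H19 and Hmga2 was not tested. For Crabp1 they were Lgals1 (0.62), S100a6 (0.59) and the ribosomal protein gene Rps2 (0.54). For Igf2bp2 they included Malat1 (0.15) and Ankrd44 (0.14). For Igf2bp3, Peg3 and Dlk1 the highest mean r was 0.08 or less, which in sparse counts describes no pattern.

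The wider imprinted network was measured in the tumor gate through lists written from general knowledge. Many genes reached the 10 CPM used for these lists: Igf2bp3, at a mean of 16.6 CPM, ranked 7635 among 27951 genes with a UMI there. The share of all genes at 10 CPM was not counted, so the counts below do not set a list apart. Of 19 further paternally expressed genes in the table, 6 were at 10 CPM or more, led by Airn (686 ± 97.5 CPM, SD, n = 7), Sgce (163 ± 14.2 CPM) and Slc38a4 (59.4 ± 15.3 CPM). Airn overlaps Igf2r on the opposite strand, and counting by strand is not stated, so their reads may not be told apart. Of 15 maternally expressed genes, 4 reached 10 CPM, among them Gnas (573 ± 58.8 CPM), Igf2r (168 ± 19.4 CPM), the receptor that clears Igf2, and Cdkn1c (26.7 ± 10.4 CPM), a cell cycle inhibitor. Several imprinted genes were host transcripts like Peg3 and Dlk1. Singled out after their values were seen, Meg3, the noncoding neighbor of Dlk1, had a mean of 1.20 CPM in the tumor gate and a pooled level of 2039 CPM in pericytes. Grb10 was at 0.599 CPM in the tumor gate and 383 CPM in fibroblasts, and Kcnq1ot1 at 1.44 CPM and 183 CPM.

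Most listed genes that act on Igf2 or with it were present although Igf2 itself gave no UMI. Of the 18 genes of the IGF axis, only 1 had its highest pooled level in the tumor gate. That gene, Igfbp1, looked up after the count was seen, was close to absent there, at 0.002165 CPM. Of 18 genes of the IGF axis, 12 were at 10 CPM or more, with Igfbp4 (630 ± 138 CPM, SD, n = 7), Igf1r, the receptor of IGF1 and IGF2 (295 ± 54.6 CPM), and Igfbp7 (273 ± 46.1 CPM) as the 3 highest. Of 15 genes of the Lin28 and let-7 axis and related RNA-binding proteins, 10 reached 10 CPM, among them Elavl1 (147 ± 14.1 CPM), Tut4, which tails let-7 precursors (130 ± 10.6 CPM), Ddx3x (97.0 ± 5.73 CPM) and Igf2bp1 (45.8 ± 11.0 CPM), the third Igf2bp gene. Lin28a was at 0.0206 CPM and Lin28b at 9.39 CPM, values looked up after the others were seen. The 3′ untranslated regions of Igf2bp1 and Lin28b (6337 and 4445 bases) each held the let-7 seed match 4 times, where 34.4% and 24.4% of regions of like length held it at least once.

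Crabp1 was accompanied by some other genes of retinoic acid handling, while 6 of the 20 listed were under 1 CPM. The tumor gate had the highest pooled level for 5 of the 20. Of 20 such genes, 12 reached 10 CPM, among them Fabp5, which also binds retinoic acid (313 ± 78.2 CPM, SD, n = 7), and the receptor Rarg (61.7 ± 7.29 CPM). Of 15 Notch genes, listed because Dlk1 is related to Notch ligands, 4 reached 10 CPM, with Notch2 (309 ± 39.4 CPM), Hes1 (44.4 ± 20.6 CPM) and Jag1 (28.0 ± 3.25 CPM) highest.

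By edgeR no gene of these 6 lists was called between irradiated and control tumors, in a fit that called 0% of all genes. The median log2 fold change was 0.04 over 11 tested paternally expressed genes, -0.37 over 11 maternally expressed genes, -0.16 over 17 genes of the IGF axis, 0.00 over 14 of the Lin28 and let-7 list, -0.11 over 18 of the retinoic acid list and -0.03 over 11 of the Notch list, against 0.00 over all genes tested. The genes with the largest changes in each list, among those at 10 CPM or more, were Igfbp5 (-0.75, SE 0.67), Cdkn1c (-0.73, SE 0.41), Aldh1a3 (-0.72, SE 0.51), Igfbp3 (-0.68, SE 0.39), Fabp5 (-0.45, SE 0.22), Sfmbt2 (0.34, SE 0.23), Arid3a (0.33, SE 0.23), Igf2bp1 (0.21, SE 0.17), Plagl1 (-0.19, SE 0.35), Jag1 (-0.15, SE 0.13), Igf2r (0.11, SE 0.10) and Notch2 (-0.03, SE 0.12). Each had an edgeR adjusted p of 0.9995.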

How the data were processed

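Droplet 3′ libraries of 7 tumors were read from the UMI counts per gene and cell that the authors deposited, from Cell Ranger (version 8.0.0 in the headers); the labels name mm10. Cells were kept within 3 median absolute deviations of the library median in UMIs, genes, mitochondrial and ribosomal share. Gates used summed marker UMIs per 10000: at least 10 tumor marker UMIs with under 2 Xist and under 20 macrophage UMIs for tumor cells, at least 80 macrophage UMIs for macrophages, and at least 25 endothelial UMIs for endothelium. Fibroblasts needed at least 25 fibroblast UMIs, 2 Xist UMIs and 10 tumor marker UMIs, since both share those genes. No doublet caller was run, and barcodes that met more than 1 gate were left out.

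UMIs summed per tumor were tested with edgeR 4.0.16 (filterByExpr, TMM, robust quasi-likelihood, Benjamini-Hochberg, threshold 0.05) in R 4.3.3, tested on simulated data; DESeq2 1.42.0 was an alternative. Other alternatives were no filter, library-size scaling, leaving out each tumor, a replicate block, a library-set term, all barcodes, a stricter gate and equal cell numbers. The SE of an edgeR log2 fold change was derived as its absolute value over the square root of F, the statistic of the test. It is therefore approximate. CPM are a gene's UMIs per 1000000 UMIs of a gate. Limits for a count of 0 use 3 UMIs, and they and the Wilson intervals cover counting error only. Library sets came from cell number, depth, genes per cell and mitochondrial share. For 4 or more samples, 1 standing apart was checked by Dixon's ratio.

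The members and lists were chosen with earlier results of these data known. Named genes are the 9 members, the 3 genes most like each across cells, and per list the 3 with the highest level and the 2 with the largest change at 10 CPM or more. Single-gene results of 2 of these named genes are not reported here.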

Additional observations from a re-analysis of the deposited data

Results flagged for a closer look

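Among 22 groups of 4 values checked, 3 had a sample that stood apart from the others by Dixon's ratio, and chance alone gives about 1 in 20 groups. Crabp1 in the tumor gate was at 1432 CPM in irradiated 2 against 1925, 1970 and 2017 CPM in the other irradiated tumors, with a gap of 0.843 of the range. Peg3 in the tumor gate was at 0.0685 CPM (6 UMIs) in irradiated 1 and at 0 in the other 3 irradiated tumors. Its share of thinned tumor-gated cells was 0.0643% in irradiated 1 and 0 in the others. Both Peg3 flags describe the same few UMIs, and with 3 values of 0 the gap is always 1.000 of the range. The number of flags can therefore not be set against the chance rate.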

How the results depend on the processing

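The counts of genes called by edgeR in the tumor and macrophage gates stayed at 0 under every edgeR alternative, and DESeq2 called 1 gene in the tumor gate and 3 in macrophages. No member was called under any alternative, and the lowest adjusted p of any member was 0.768. Hmga2, Mest, Igf2bp2, Igf2bp3 and Crabp1 kept their direction under all 17 alternatives. With 1 tumor left out, log2 fold changes ran from 0.14 to 0.65 for Hmga2, from 0.27 to 0.47 for Igf2bp2, from 0.28 to 0.79 for Igf2bp3, from -0.68 to -0.18 for Mest and from 0.01 to 0.30 for Crabp1. H19 ran from -0.52 to 0.16 and turned positive without irradiated 3 (0.10) and without irradiated 4 (0.16). Dlk1 ran from -1.37 to 0.16 and turned positive without irradiated 3 (0.16), without irradiated 4 (0.14) and with the stricter gate (0.12). The cause was not tested. Members found in at least 20% of cells in every tumor were 5 at 5000 UMIs and 3 at 2000 UMIs, where fewer UMIs are kept by construction. Of the 18 genes most like 6 members, 15 were also named with Spearman's rho. Library-size scaling moved the median of all genes to 0.06. Whole-sum levels rest on deep libraries, but Peg3, Dlk1 and the host gates with few cells rest on few UMIs.

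The replicate numbers did not pair the tumors. Same-numbered tumors correlated in their deviations at -0.414, -0.109 and 0.062. With the replicate block over numbers 1 to 3, 0 genes were called in either gate, H19 turned to 0.04, and the log2 fold changes were 0.13 for Hmga2, 0.26 for Igf2bp2 and 0.46 for Igf2bp3.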

Other observations

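A group of 436 cells held few tumor markers, no Xist UMI and few macrophage markers, at a median of 2702 UMIs per cell. Relative to the tumor gate its leading genes were of mixed origin, with the antibody genes Igkc (1095 CPM) and Igha (422 CPM), the hemoglobin gene Hbb-bs (546 CPM), and Rrm2 (187 CPM) and H2az1 (3849 CPM) of dividing cells, so it was given no name. Crabp1 was at 3100 CPM and Hmga2 at 232 CPM over these cells, and H19 was at 10.6 CPM and Mest at 15.1 CPM. Of the 164 cells deep enough to be thinned, 97.0% had Crabp1 and 3.05% had H19. Adding the group to the tumor gate, an alternative chosen after seeing the data, left the log2 fold change between irradiated and control tumors at 0.49 for Hmga2 and 0.14 for Crabp1.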
